A study of Mus musculus with 8 samples.

Results

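The genes described here encode the receptors and ligands of the glial cell line-derived neurotrophic factor (GDNF) family: the receptor tyrosine kinase gene Ret, the co-receptor genes Gfra1, Gfra2 and Gfra3, and the ligand genes Gdnf and Nrtn. They were taken by gene symbol from the deposited expression table, where all 6 were found among 18561 genes. The table covers 8 libraries of enteric neural crest cells, which migrate along the embryonic gut and form its nervous system. The gut was taken from mouse embryos at embryonic day 14.5 (E14.5). Cells were sorted by flow cytometry for CD271, which is the product of Ngfr, and for CD57, a sugar epitope carried by neural crest cells. A tube held about 200 cells, and full-length cDNA was amplified from it with Smart-seq2 before sequencing.

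The genotype labels put 5 libraries in an Emb knockdown group (Emb kd 1 to 5) and 3 in a wild-type group (WT 1 to 3). The sources used here do not give the strain, the way the knockdown was made, the sex of the embryos, or whether a tube came from 1 embryo or a pool. The labels do not tie the libraries to separate animals, and each p-value is set against a spread between tubes that could be technical. Libraries held 20116607 to 26959265 expected counts, and 15079 to 17049 genes had a count.

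GDNF family ligands act as dimers that first bind a GFRα co-receptor held at the cell surface by a lipid anchor, and the complex then activates RET. GDNF prefers the product of Gfra1, neurturin (Nrtn) that of Gfra2, artemin that of Gfra3 and persephin that of Gfra4. In the developing gut, GDNF from the mesenchyme keeps RET-bearing crest cells alive, dividing and migrating, and mice without Ret, Gfra1 or Gdnf lack enteric neurons in most of the intestine. RET is the main gene of Hirschsprung disease, in which the distal bowel has no ganglia.

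By RefSeq's annotation of GRCm38.p6, all 6 are protein-coding genes, and the place of Gfra3 is given with its values. Ret (gene 19713) lies on chromosome 6 from 118151748 to 118197744 and Gfra1 (14585) on chromosome 19 from 58235581 to 58455946. Gfra2 (14586) lies on chromosome 14 from 70890107 to 70979840. Gdnf (14573) lies on chromosome 15 from 7810048 to 7837580 and Nrtn (18188) on chromosome 17 from 56751323 to 56757548. The counts were given for whole genes, so they do not tell isoforms apart.

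Start-site windows from RefSeq (build GRCm38.p6) were matched for 3 of the 6 genes, Gfra1, Gdnf and Nrtn, and not for Ret, Gfra2 and Gfra3. They are shown because Gfra1 and Gdnf passed the test in opposite directions in the comparison of 6 libraries below, and Nrtn is the other ligand gene. Each is given 5′ to 3′ on the gene's strand and ends at the base before the start site. Capitals mark matches to the motifs named after them.
Gdnf, first start site, chr15:7809798-7810047, plus strand: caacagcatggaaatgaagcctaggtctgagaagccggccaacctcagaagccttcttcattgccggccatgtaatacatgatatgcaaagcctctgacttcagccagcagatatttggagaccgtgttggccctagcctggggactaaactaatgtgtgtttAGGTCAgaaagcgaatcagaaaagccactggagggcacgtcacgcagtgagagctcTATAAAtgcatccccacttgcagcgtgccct
Gdnf, second start site, chr15:7813477-7813726, plus strand: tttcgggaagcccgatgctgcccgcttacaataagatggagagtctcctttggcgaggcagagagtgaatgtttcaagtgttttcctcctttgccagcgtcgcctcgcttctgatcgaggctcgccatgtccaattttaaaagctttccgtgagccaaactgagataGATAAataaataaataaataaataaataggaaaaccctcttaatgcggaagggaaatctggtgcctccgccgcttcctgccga
Nrtn, chr17:56757549-56757798, minus strand: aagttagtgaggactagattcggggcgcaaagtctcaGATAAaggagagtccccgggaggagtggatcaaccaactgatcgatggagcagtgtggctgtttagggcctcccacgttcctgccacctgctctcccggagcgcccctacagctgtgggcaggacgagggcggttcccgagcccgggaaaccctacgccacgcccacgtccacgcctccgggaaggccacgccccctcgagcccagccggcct
Gfra1, chr19:58455399-58455460, minus strand: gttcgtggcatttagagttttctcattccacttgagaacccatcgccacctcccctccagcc

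The Gfra1 window was limited to 62 bases because, in GENCODE M21, an exon of another Gfra1 transcript covers bases farther upstream. This window lies inside the Gfra1 span given above, so its start site is not the outermost of the gene. The bases upstream of the outermost start site were not searched. The motifs were searched on both strands and their matches did not overlap. They were ACAAAG and ACAATG for SOX factors, TAATTA for homeodomain factors, GATAA for GATA factors, AGGTCA as a nuclear receptor half-site and TATAAA as the TATA box. The first Gdnf start site had TATAAA with its first base 31 bases upstream, a letter match found in 12.4% of the 32851 windows of 250 bases, and AGGTCA at 87 bases upstream (14.0% of windows). GATAA was found at 83 bases before the second Gdnf start site and at 213 bases before that of Nrtn (22.6% of windows). Neither SOX motif nor TAATTA was found in any of the 4 windows. Of all windows of 250 bases, 16.5% hold ACAAAG, 10.7% ACAATG and 4.84% TAATTA. The 62-base Gfra1 window held none of the 6 motifs, which 0.846% (TAATTA) to 5.25% (GATAA) of windows of that length hold. GC content was 64.8% upstream of Nrtn and 50.8% and 46.8% upstream of the Gdnf start sites, against a median of 52.4% over all windows of 250 bases.

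The libraries did not follow their labels in full. Emb, the targeted gene, was at 15.9 to 17.7 CPM (counts per 1000000 of the TMM-scaled library size) in WT. The libraries labelled Emb kd held 21.4 to 353 CPM, so no library labelled knockdown was lower than WT. Every direction below is therefore a difference between libraries by label. Emb kd 1 and 2 also stood apart. Their 10 leukocyte markers summed to 17783 to 21126 CPM, against 1079.9 to 1988 CPM in Emb kd 3 to 5 and 259.8 to 459.9 CPM in WT. Their 10 neural crest markers summed to 165 to 208 CPM, against 935 to 1156 and 2675 to 2701 CPM, with Sox10, Tlx2 and Foxd3 at 0 in Emb kd 2. The 10 neuronal markers summed to 12.6 to 12.9 CPM there, against 655 to 1131 and 1681 to 2218 CPM. Most of the crest sum in Emb kd 1 and 2 was Ednrb, the endothelin receptor gene, at 176 and 159 CPM there, 340.4 to 386 CPM in Emb kd 3 to 5 and 1029.5 to 1252 CPM in WT. The other 9 crest markers summed to 32.5 and 6.59 CPM in Emb kd 1 and 2, against 595 to 811 and 1449 to 1664 CPM. Apart from Ednrb, markers of the labelled cell type were thus scarce in Emb kd 1 and 2. The comparison was run with all 8 libraries and with 6, leaving these out, a choice made with their values known.

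In wild-type cells the signalling receptor and its GDNF co-receptor were the most abundant of the 6 transcripts per gene length. Gfra1 was at 69.8, 73.0 and 68.8 FPKM (fragments scaled to gene length and library size) in WT 1, 2 and 3. Ret, at 46.9, 34.3 and 33.6 FPKM, was below Gfra1 in each library, and the ranges did not overlap. The ligand gene Nrtn (6.71 ± 3.10 FPKM, SD, n = 3) and the co-receptor gene Gfra2 (6.06 ± 1.05 FPKM) came next and overlapped each other. Gdnf, the ligand of Gfra1, stood below them at 2.31 ± 0.524 FPKM, and Gfra3 was last at 0.727 ± 0.556 FPKM, a level that rested on 4, 42 and 51 counts.

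**Figure D1:**
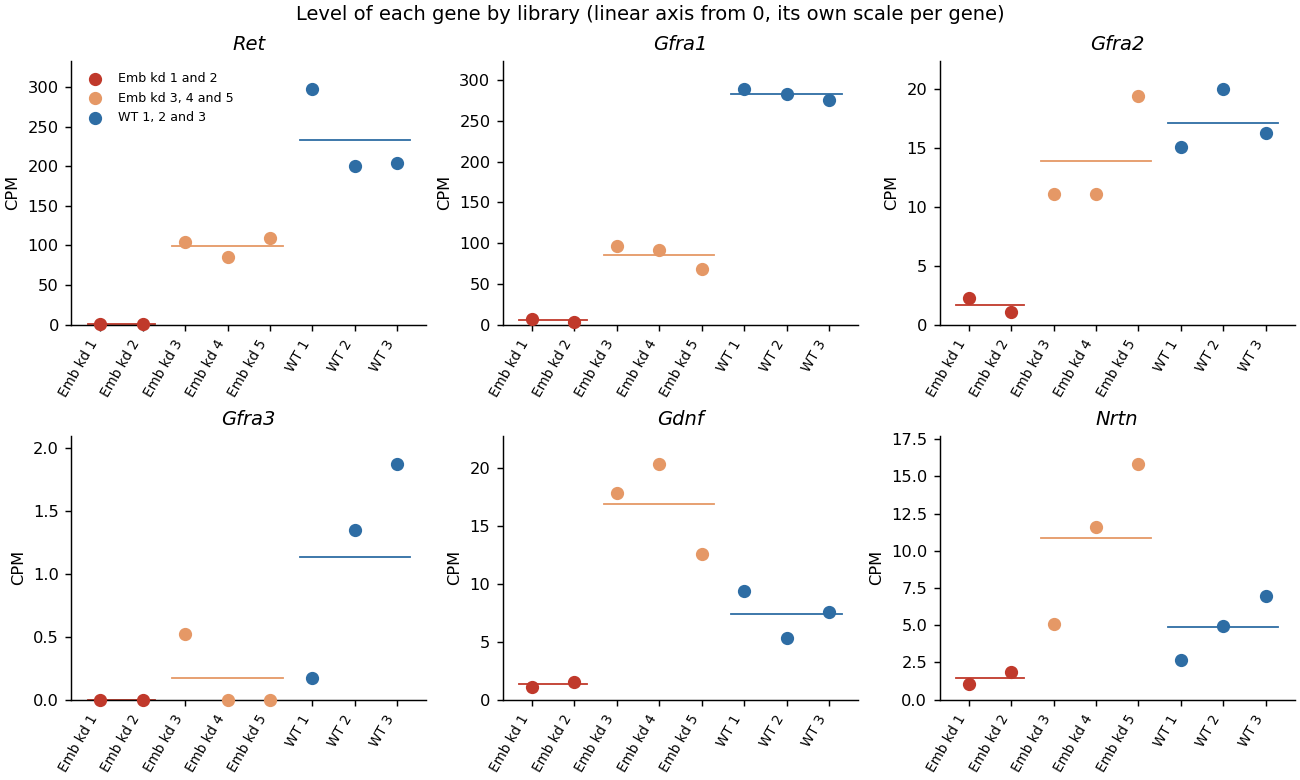
Level of each of the 6 genes in CPM (y axis, linear from 0, a separate scale for each gene) in each library (x axis). Points are libraries and lines the means of Emb kd 1 and 2, Emb kd 3 to 5 and WT. Ret and Gfra1 sit below every WT library in all 5 libraries labelled Emb kd, while Gdnf is above WT in Emb kd 3 to 5 and below it in Emb kd 1 and 2.

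Ret, the tyrosine kinase that carries the signal, was at 297, 199.8 and 204 CPM in WT 1, 2 and 3. It was at 104, 85.4 and 109 CPM in Emb kd 3, 4 and 5 and at 0.876 and 0.377 CPM in Emb kd 1 and 2, where it rested on 17 and 8 counts. All 5 libraries labelled Emb kd were below all 3 of WT. The mean of Emb kd 3 to 5 was 99.6 ± 12.5 CPM, against 233 ± 54.9 CPM in WT (SD, n = 3 each). With 6 libraries Ret fell by 1.23 ± 0.21 (SE) on the log2 scale (edgeR quasi-likelihood test, Benjamini-Hochberg adjusted p = 0.0117). The call was lost without Emb kd 4 (log2 fold change -1.13, edgeR adjusted p = 0.0663).

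Gfra1, the co-receptor that presents GDNF to RET, had a steady level in WT, at 289, 283 and 276 CPM. It was at 97.0, 91.8 and 68.7 CPM in Emb kd 3, 4 and 5 and at 6.49 and 3.53 CPM in Emb kd 1 and 2. The 3 groups of libraries did not overlap. In the 6 libraries Gfra1 fell by 1.72 ± 0.18 on the log2 scale (edgeR adjusted p = 0.00343), from 283 ± 6.32 to 85.8 ± 15.1 CPM (SD, n = 3 each). It passed the threshold with each library left out in turn (edgeR adjusted p up to 0.0326).

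Gfra2, the preferred co-receptor of neurturin, did not separate the groups. It was at 15.1, 20.0 and 16.3 CPM in WT and at 11.1, 11.1 and 19.4 CPM in Emb kd 3, 4 and 5, ranges that overlap. Emb kd 1 and 2 were lower, at 2.22 and 1.08 CPM. The log2 fold change in the 6 libraries was -0.31 ± 0.29 (edgeR adjusted p = 0.464).

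Gfra3 (gene 14587, chromosome 18 from 34689898 to 34720387), the artemin co-receptor, had the lowest FPKM of the 6 genes in every library. It was at 0.174, 1.35 and 1.87 CPM in WT, at 0.518 CPM in Emb kd 3 and at 0 counts in Emb kd 1, 2, 4 and 5. A count of 0 allows up to 0.155, 0.141, 0.140 and 0.138 CPM in these 4 libraries (3 counts, for counting error only). The groups overlapped, since WT 1 was below Emb kd 3. The log2 fold change of -2.61 ± 1.44 with 6 libraries did not pass (edgeR adjusted p = 0.219) and was -7.83 without Emb kd 3 (edgeR adjusted p = 0.0272), a fitted value against a group at 0 that is no measure of size.

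Gdnf, the ligand gene, moved the other way in the 6 libraries. It was at 9.34, 5.31 and 7.56 CPM in WT and at 17.8, 20.3 and 12.6 CPM in Emb kd 3, 4 and 5, so that all 3 were above all of WT. In Emb kd 1 and 2 it was at 1.13 and 1.55 CPM, below every other library. With 6 libraries it rose by 1.19 ± 0.31 on the log2 scale (edgeR adjusted p = 0.0314), from 7.41 ± 2.02 to 16.9 ± 3.91 CPM (SD, n = 3 each). The call was lost without Emb kd 4 (edgeR adjusted p = 0.127), WT 1 (0.0537), WT 2 (0.121) or WT 3 (0.11), with a log2 fold change of at least 1.00 each time.

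Some markers of gut mesenchyme, the tissue that makes GDNF in the embryo, rose in the same 6 libraries. The 12 mesenchyme and smooth muscle markers summed to 6957 to 8257 CPM in Emb kd 3 to 5, 4043 to 5141 CPM in WT and 138 to 1010.0 CPM in Emb kd 1 and 2. Of these 12, 5 rose in the 6 libraries and the other 7 missed the threshold (median log2 fold change 0.65), where 11.1% of all genes tested rose. The 12 reached from Foxf1 at -0.05 to the collagen gene Col1a2 at 1.54. The ratio of Gdnf to Pdgfra counts, a receptor gene of mesenchymal cells chosen after the data were seen, was -1.90, -2.17 and -2.99 on the log2 scale in Emb kd 3 to 5 and -1.51, -2.18 and -2.43 in WT. These ranges overlap, as do those of Gdnf to Col1a2 (-6.72 to -5.76 and -6.02 to -5.26). Of the 12 markers, Col1a2 (log2 fold change 1.54) and Pdgfra (1.49) rose most in the 6 libraries. No other of the 12 was set against Gdnf. In Emb kd 1 and 2 Gdnf did not keep these ratios to both genes: Pdgfra had 0 and 28 counts there, Gdnf to Pdgfra was 5.49 and 0.23, and Gdnf to Col1a2 was -2.07 and -5.14. The part of other cells in the level of Gdnf was not tested.

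Nrtn, which encodes neurturin, was spread widely among the libraries labelled Emb kd. It was at 5.11, 11.6 and 15.8 CPM in Emb kd 3, 4 and 5 and at 2.65, 4.93 and 6.97 CPM in WT, so Emb kd 3 lay within the WT range. Emb kd 1 and 2 were at 1.08 and 1.84 CPM. The log2 fold change in the 6 libraries was 1.15 ± 0.50 and did not pass (edgeR adjusted p = 0.126). Without Emb kd 3 it was 1.48 and passed (edgeR adjusted p = 0.028).

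**Figure D2:**
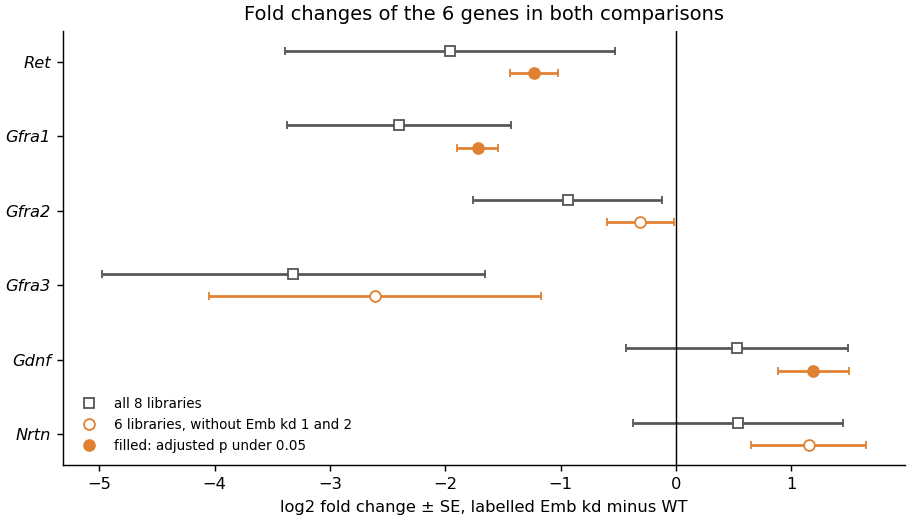
Log2 fold changes with standard errors (x axis, libraries labelled Emb kd minus WT) of the 6 genes (y axis) in the comparison of 8 libraries (squares) and of 6 libraries (circles), filled where the adjusted p was under 0.05. Ret and Gfra1 lie below 0 and Gdnf above 0 in the 6 libraries, and no gene passes with 8.

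With all 8 libraries none of the 6 genes passed. Over all genes the edgeR test called 0 of 15411, that is 0% of genes tested, while 2865 (18.6%) had an unadjusted p under 0.05. Gfra1 was the 1 member with an unadjusted p under 0.05 (log2 fold change -2.40 ± 0.97, edgeR adjusted p = 0.243). Ret was at -1.96 ± 1.43 (edgeR adjusted p = 0.51) and Gdnf at 0.53 ± 0.96 (edgeR adjusted p = 0.82). DESeq2 called none of the 6 members and limma voom with quality weights called Gfra1 alone (log2 fold change -1.99, adjusted p = 0.0141). The libraries labelled Emb kd did not overlap WT for 2 of the 6, Ret and Gfra1, both lower, against 22.7% of all genes tested (11.9% lower and 10.8% higher). With 6 libraries, 2 members were called lower and 1 higher, where 9.37% and 11.1% of 15115 genes tested were called lower and higher (20.4% in all). Higher calls were 54.1% of all calls, against 45.4% when no composition factor was applied and 38.4% with log2(FPKM + 1). An unadjusted p under 0.05 was reached by 4 of the 6 members and by 37.5% of all genes tested. The groups did not overlap for Ret and Gfra1, both lower, and Gdnf, higher. Of all genes tested 43.4% did not overlap, 23.0% lower and 20.4% higher. Without Emb kd 4 only Gfra1 was called, and without Emb kd 3 Gfra3 and Nrtn were called too.

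Ret and Gfra1 fell together with other genes of enteric neural crest cells. Of the 10 neural crest markers, 7 fell, none rose and 3 did not pass in the 6 libraries (median log2 fold change -1.43, against 0.02 for all genes tested). Of 10 neuronal markers, 5 fell. Among all genes tested in this comparison, 9.37% were called lower and 11.1% higher. Ngfr, the gene of the sort antigen, was at 23.6, 14.1 and 14.2 CPM in Emb kd 3 to 5 and 83.3, 208 and 149 CPM in WT, and fell by 3.08 ± 0.37 on the log2 scale (edgeR adjusted p = 0.0039). In bulk libraries, fewer cells of a type and less RNA per cell cannot be told apart. Leukocyte markers moved the other way in the 6 libraries, with 9 of 10 higher, and endothelial markers fell, with 7 of 8 lower. Their part in the levels of the receptor genes was not tested.

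Ratios within a library do not depend on how libraries are scaled. The log2 ratio of Gfra1 to Ret counts was -0.10, 0.10 and -0.67 in Emb kd 3, 4 and 5 and -0.04, 0.50 and 0.44 in WT 1, 2 and 3. The means, -0.22 ± 0.40 and 0.30 ± 0.30 (SD, n = 3 each), differed by -0.52, and the ranges overlapped (exact two-sided permutation test, p = 0.2, where 3 against 3 cannot go below 0.1). A larger fall of the co-receptor than of the receptor was thus not separated from the spread. In Emb kd 1 and 2 the ratio was 2.85 and 3.15, far above the other 6, at Ret counts of 17 and 8. Over 8 libraries the difference was 0.77 (exact two-sided permutation test, p = 0.679).

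Among ratios chosen after the data were seen, Gfra1 to Sox10 was 0.51, 0.24 and 0.00 against 0.04, 0.05 and 0.18 in WT, which overlap. Gfra1 to Ednrb overlapped too, at -1.81, -2.07 and -2.33 against -1.83, -2.10 and -2.18. Ret to Sox10 did not overlap, at 0.61, 0.14 and 0.67 in Emb kd 3, 4 and 5 and 0.08, -0.45 and -0.26 in WT, so Ret was higher relative to Sox10 in Emb kd 3, 4 and 5 than in any WT library. The ratio of Gdnf to Gfra1 separated the groups, at -2.44, -2.18 and -2.45 in Emb kd 3 to 5 and -4.95, -5.73 and -5.19 in WT, as the opposite changes of its 2 parts require. Emb kd 1 and 2, where both transcripts were scarce, were at -2.49 and -1.17.

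**Figure D3:**
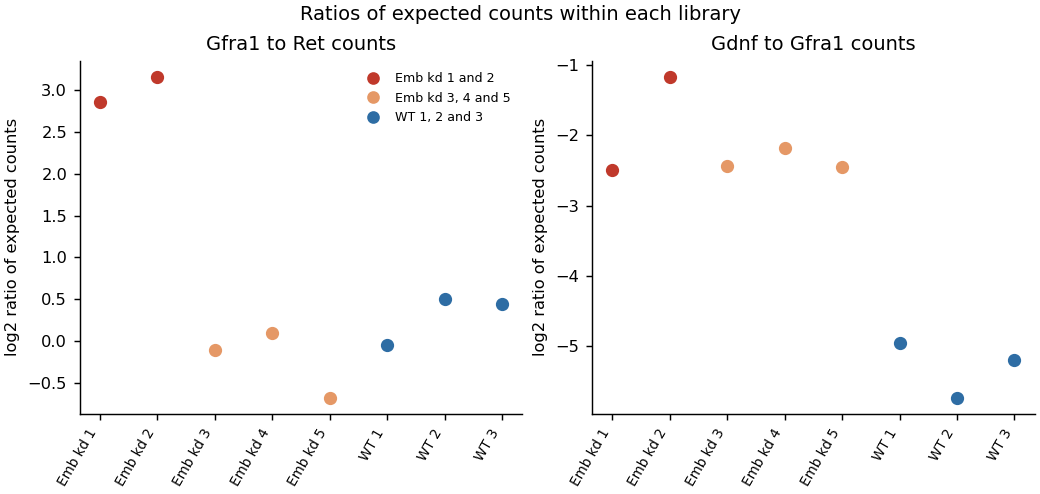
Log2 ratio of expected counts (y axis) of Gfra1 to Ret and of Gdnf to Gfra1 in each library (x axis), coloured by group of libraries. Gfra1 to Ret overlaps between Emb kd 3 to 5 and WT, and Gdnf to Gfra1 lies above WT in every library labelled Emb kd.

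The mix of co-receptor transcripts differed as well. Gfra4, the persephin co-receptor gene, was added to the other 3 for this description, which was chosen after the data were seen and is given without a test. Gfra1 made up 87.0%, 84.2% and 83.4% of the summed FPKM of Gfra1 to Gfra4 in WT 1, 2 and 3, and 64.8%, 54.6% and 49.4% in Emb kd 3, 4 and 5. The Gfra4 share was 6.36% to 8.23% in WT and 23.6% to 35.2% in Emb kd 3 to 5. The Gfra2 share was 6.53% to 8.35% and 10.2% to 22.0%. The summed co-receptor level was 80.3 to 86.7 FPKM in WT and 32.8 to 38.1 FPKM in Emb kd 3 to 5, so the shift in shares came with a lower total. In Emb kd 1 and 2 the sum was 1.75 and 1.79 FPKM, too little to read the shares.

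**Figure D4:**
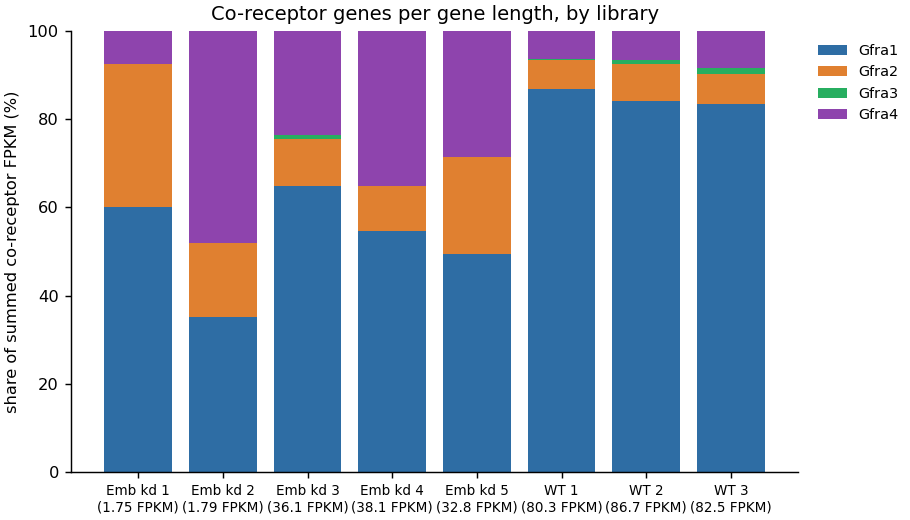
Share of the summed FPKM of the 4 co-receptor genes (y axis, percent) in each library (x axis, with the summed FPKM under each label). Gfra1 holds 83.4% to 87.0% in WT and 49.4% to 64.8% in Emb kd 3 to 5, where Gfra4 holds 23.6% to 35.2%.

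Other genes of the pathway were read from 5 lists with 46 members, of which 42 could be tested in the 6 libraries. Of these 42, 7 fell, 5 rose and 28.6% were called in either direction, against 20.4% of all genes tested. With log2(FPKM + 1) in place of counts 2 of them rose. With 8 libraries edgeR called no pathway gene, where it called 0 of all 15411 genes tested. Without Emb kd 4, 1 fell and 0 rose, and without WT 3 the counts were the same. Without Emb kd 5 or WT 1, 4 fell and 1 rose, without WT 2, 2 fell and 0 rose, and without Emb kd 3, 8 fell and 15 rose. Dok4, Shc1, Spred2 and the list genes given without a fold change were chosen after their values were seen.

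Among the other ligands and receptors of the family, none of 6 tested genes passed (median log2 fold change 0.42). Over all genes tested 20.4% passed. Gas1, which encodes a GFRα-like protein that can bind RET, was at 166, 243 and 284 CPM in Emb kd 3, 4 and 5 and at 115, 151 and 151 CPM in WT (log2 fold change 0.73 ± 0.23, edgeR adjusted p = 0.0521). Gfra4 was at 9.44, 15.7 and 10.7 CPM against 5.61, 5.73 and 7.19 CPM (0.95 ± 0.31, edgeR adjusted p = 0.0587). For both genes all 3 libraries were above all of WT, as they were for 20.4% of all genes tested. Both passed with DESeq2 (adjusted p = 0.0136 for Gas1 and 0.0206 for Gfra4) and in edgeR's test without Emb kd 3 (0.00514 and 0.0269). Gdf15, a ligand of the brainstem receptor encoded by Gfral, overlapped between the groups (edgeR adjusted p = 0.319). Artn, the artemin gene, was at 1.78 to 3.04 CPM in Emb kd 3 to 5 and 1.25 to 3.30 CPM in WT, and Ncam1, an alternative GDNF receptor, at 226 to 287 and 231 to 264 CPM. Pspn, the persephin gene, and Gfral were too low to test in the 6 libraries, at no more than 0.830 and 0.0740 CPM in any library.

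Adaptors and enzymes that bind activated RET moved in both directions. Of 17 tested, 3 fell, 2 rose and 12 did not pass (median 0.24). Of all genes tested, 9.37% were called lower and 11.1% higher. Plcg1, the phospholipase C that docks on RET, fell from 51.7, 73.9 and 63.4 CPM in WT to 13.8, 4.86 and 1.98 CPM in Emb kd 3, 4 and 5 (log2 fold change -3.18 ± 0.59, edgeR adjusted p = 0.0136). It was at 11.0 and 15.2 CPM in Emb kd 1 and 2, so all 5 libraries labelled Emb kd were below WT. With 8 libraries 11.9% of all genes tested were lower in this way. Sos1, the exchange factor that activates RAS, and Pik3ca, the catalytic subunit of PI 3-kinase, rose by 0.96 ± 0.26 and 1.07 ± 0.32 (edgeR adjusted p = 0.0362 and 0.045). The adaptor genes Dok4 and Shc1 fell by 1.80 ± 0.53 and 0.70 ± 0.21 on the log2 scale (edgeR adjusted p = 0.0452 and 0.0485). The call of Plcg1 was lost without Emb kd 4 (edgeR adjusted p = 0.0793) or WT 3 (0.0528). Those of Sos1, Pik3ca, Dok4 and Shc1 were lost without any 1 of Emb kd 4, Emb kd 5, WT 1, WT 2 or WT 3 (edgeR adjusted p from 0.0614 to 0.176). On log2(FPKM + 1) Sos1 and Pik3ca did not pass (limma adjusted p = 0.0802 and 0.0681), nor did Dok4 without the low-count filter (edgeR adjusted p = 0.0525).

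Of 6 genes of RET trafficking and down-regulation, 2 rose and 4 did not pass (median 0.39), where 11.1% of all genes tested rose. Sorl1, a sorting receptor that carries Gfra1 protein and RET to endosomes, was at 28.1, 31.2 and 35.3 CPM in Emb kd 3, 4 and 5 and at 15.1, 12.6 and 15.2 CPM in WT. It rose by 1.14 ± 0.20 (edgeR adjusted p = 0.0126). In Emb kd 1 and 2, with the highest leukocyte markers, it was at 139 and 109 CPM. Cd2ap, an adaptor that links receptors to the ubiquitin ligase CBL, rose by 0.88 ± 0.23 (edgeR adjusted p = 0.0302), and Ptprf, a receptor phosphatase, was at 171 to 200.0 CPM against 133 to 151 CPM without passing (edgeR adjusted p = 0.111, or 0.0323 without Emb kd 3). The call of Sorl1 was lost without Emb kd 4, WT 2 or WT 3 (edgeR adjusted p = 0.0621, 0.0618 and 0.0623). That of Cd2ap was lost without any library but Emb kd 3 (edgeR adjusted p from 0.0637 to 0.112) and on log2(FPKM + 1) (limma adjusted p = 0.129).

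Feedback regulators and transcription factors induced by RET and other kinases through MAPK were split. Of 10, 3 fell, 1 rose and 6 did not pass (median 0.03), where 9.37% of all genes tested fell and 11.1% rose. Etv4 and Etv5 encode ETS factors induced by GDNF in other tissues, and Dusp6 encodes a phosphatase of ERK. Etv4 was at 12.8, 11.8 and 9.08 CPM in Emb kd 3, 4 and 5 and at 26.2, 26.3 and 26.0 CPM in WT, and fell by 1.22 ± 0.22 (edgeR adjusted p = 0.0129). Dusp6 was at 104, 78.6 and 80.6 CPM against 167, 195 and 191 CPM, and fell by 1.07 ± 0.18 (edgeR adjusted p = 0.0105). Etv5 fell by 0.76 ± 0.21 (edgeR adjusted p = 0.038). For these 3 genes all 3 libraries were below all of WT, as they were for 23.0% of all genes tested. In Emb kd 1 and 2 the 3 genes went separate ways, with Etv4 at 0 and 1.04 CPM, Dusp6 at 330.2 and 297 CPM and Etv5 at 162 and 139 CPM. Spred2, an inhibitor of RAF activation, rose by 1.11 ± 0.33 (edgeR adjusted p = 0.0448). Spry1, Spry4, Spred1 and Etv1 overlapped between the groups. So did Spry2 and Il17rd, which leaned higher without passing. Spry2 was at 30.8, 67.4 and 67.3 CPM in Emb kd 3, 4 and 5 and at 33.3, 30.3 and 31.3 CPM in WT (edgeR adjusted p = 0.08). Il17rd was at 12.9, 23.7 and 35.1 CPM against 16.9, 8.15 and 13.9 CPM (edgeR adjusted p = 0.141). The calls of Etv4 and Dusp6 were lost without Emb kd 4, WT 2 or WT 3 (edgeR adjusted p from 0.0526 to 0.0674). Those of Etv5 and Spred2 were lost without any library but Emb kd 3 (from 0.071 to 0.153), and that of Spred2 also without a composition factor (edgeR adjusted p = 0.0513) and on log2(FPKM + 1), where its log2 fold change was 0.25 (limma adjusted p = 0.414).

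Of 5 transcription factors reported to act on Ret, 1 fell and 2 did not pass, while Pax3 and Nkx2-1 were too low to test. Among all genes tested 9.37% fell. Sox10, needed by crest progenitors and later by glia, had levels of 68.0, 77.6 and 68.6 CPM in Emb kd 3, 4 and 5 and of 281, 274 and 244 CPM in WT, and fell by 1.90 ± 0.16 (edgeR adjusted p = 0.00343). Rarb, a retinoic acid receptor gene, was at 52.5 to 65.0 CPM against 65.3 to 75.7 CPM without passing (edgeR adjusted p = 0.206). Gata2, a GATA factor gene, was at 30.1, 25.0 and 16.2 CPM against 7.56, 26.9 and 47.1 CPM, which overlap (log2 fold change -0.19 ± 0.54, edgeR adjusted p = 0.822).

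**Figure D5:**
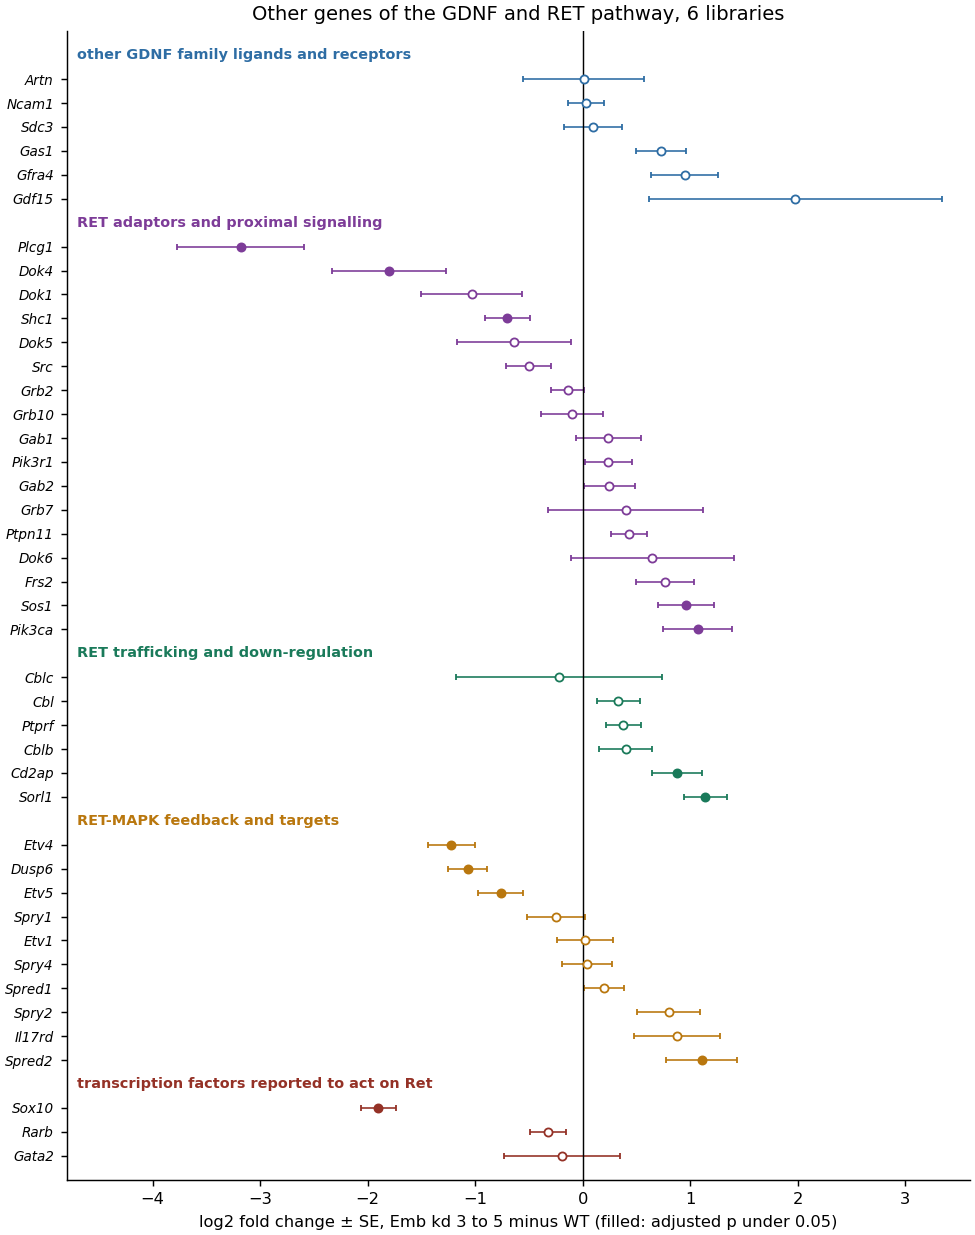
Log2 fold changes with standard errors (x axis, Emb kd 3 to 5 minus WT) of the 42 tested pathway genes (y axis), by list and filled where the adjusted p was under 0.05. The 12 filled points include Plcg1 at -3.18, Sox10 at -1.90 and Sorl1 at 1.14, and lie on both sides of 0.

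Genes whose levels followed a member most closely were found by Pearson's r of log2 CPM over the 8 libraries, among 12738 genes compared and as a description. The 8 points share Emb kd 1 and 2 as their low end for 5 of the 6 members, which alone gives a high r. The r over the other 6 libraries is given beside it, but it is no independent check. The genes were picked with these 6 libraries included. For Ret, Gfra1 and Gdnf the 6 also split into Emb kd 3 to 5 and WT, which by itself raises r. Ret was followed by Jakmip2, Tox3 and Dpysl3 (r of 0.9995, 0.9993 and 0.9989 over 8 libraries and 0.99 each over 6). Dpysl3, a cytoskeletal protein gene of growing neurites, was at 998, 655 and 769 CPM in WT, at 423, 317 and 397 CPM in Emb kd 3 to 5 and at 14.0 and 8.15 CPM in Emb kd 1 and 2. As for Ret, WT 1 was the highest library. Gfra1 was followed by Ptprm, Dpysl4 and Col18a1 (0.9984, 0.9975 and 0.9966, with 0.99, 0.99 and 0.97 over 6). Ptprm, a receptor phosphatase gene, was at 51.2, 54.1 and 59.2 CPM in WT and 17.3, 20.0 and 16.0 CPM in Emb kd 3 to 5. Gdnf was followed by Lmtk2, Hnrnpc and Mrtfb (0.9943, 0.9941 and 0.9932, with 0.97 each over 6), and Nrtn by E2f7, Morc4 and Etaa1 (0.9825, 0.9792 and 0.9766, with 0.97, 0.96 and 0.94 over 6). Hnrnpc ranged only from 349 to 502 CPM, so a high r does not mean a change of like size. Gfra2 was followed by Colgalt2, Enpp2 and Fzd8, with r of 0.9948, 0.9939 and 0.9936 over 8 libraries and 0.92, 0.85 and 0.87 over 6. Gfra3, with counts of 0 in 4 libraries, gave r of at most 0.9737, with Rassf7 (0.97 over 6).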

How the data were processed

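Enteric neural crest cells were measured in 8 libraries. HISAT, Bowtie2 and build GRCm38.p6 are named in the submitters' processing notes. Which program made the counts, and on which gene models, is not given in the sources used here. The Smart-seq2 chemistry keeps no strand, so a gene and its antisense partner share reads. It also has no molecular identifiers, so intervals cover counting error only. The expected counts per gene were deposited by the authors without normalisation, per the file headers. A second set of columns holds FPKM, a level per gene length deposited by the authors, per the file headers. There were 0 columns of other samples. Of 18561 gene identifiers, 18507 matched RefSeq's.

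Expected counts were rounded, filtered with filterByExpr, scaled with TMM factors and fitted in edgeR 4.0.16 (R 4.3.3, robust quasi-likelihood, two-sided). A gene was called where its p, adjusted by Benjamini-Hochberg across the whole table, was under 0.05. CPM values use the TMM factors of the 8 libraries throughout. FPKM values were used for levels between genes. Ratios within a library used counts + 0.5 and exact permutation tests (scipy 1.17.1). Alternatives were DESeq2 1.42.0, limma 3.58.1 (voom with quality weights, and log2(FPKM + 1) or log2(FPKM + 0.1)), other scalings, no low-count filter, a replicate block and each library left out. The edgeR, DESeq2 and voom tests were tested on simulated data.

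The rule named all 6 members, Emb and Ngfr, up to 3 genes of each pathway list with the smallest p in the 6 libraries, and the 3 genes most like each member among genes with a mean log2 CPM of at least 1. The members, lists and the 6-library comparison were chosen with earlier results of these data known. A planned ratio and 1 listed gene are not reported here. All pairs of libraries differed by more than sampling noise (smallest chi-square per degree of freedom 27.2).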

Additional observations from a re-analysis of the deposited data

Results flagged for a closer look

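In the group of 5 libraries labelled Emb kd, Gfra3 stood out in Emb kd 3, at 0.518 CPM from 14 counts, with 0 counts in the other 4. Gata2 stood out in Emb kd 2, at 332 CPM, with 16.2 to 79.3 CPM in the other 4. Of 27 measures looked at in this group (levels of the named genes and 1 ratio), these 2 had a library this far from the rest. The rule flags about 1 in 20 by chance among 5 libraries of 1 kind, which Emb kd 1 to 5 were not. For Gfra3, with 0 counts in 4 libraries, any count in Emb kd 3 would have been flagged.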

How the results depend on the processing

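With all 8 libraries the count of genes called was 0 under 6 alternatives in which edgeR or limma's FPKM fits were used, 2220 with DESeq2 and 3692 with voom, and 0 to 2 with a library left out. The count of members called was 1 with voom and 0 otherwise. The fit with a replicate block called 0 genes and gave log2 fold changes of -1.27 for Gdnf and -1.05 for Nrtn, against 0.53 and 0.54 without it. Same-numbered libraries did not deviate together (correlations of -0.027, 0.040 and -0.045). The deviations of Emb kd 1, 2 and 3 were taken from the mean of all 5 libraries labelled Emb kd. Emb kd 1 and 2 stood apart in that group, so these correlations cannot tell whether the numbers pair the libraries. On log2(FPKM + 0.1) Gdnf and Nrtn were at -0.36 and -0.19, and on log2(FPKM + 1) Nrtn was at -0.05. The cause was not tested. No replicate block could be used with 6 libraries, where only the number 3 is shared.

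With 6 libraries, 3090 genes were called and 6900 with voom. Leaving out a library gave 180 (without Emb kd 4) to 5982 (without Emb kd 3), with 1663 without Emb kd 5 and 1388, 417 and 294 without WT 1, 2 and 3. Members called were 3, 5 with voom, and 1 (without Emb kd 4) to 5 (without Emb kd 3). Pathway genes called higher were 5, 9 with DESeq2, 14 with voom, 2 on either FPKM scale and 0 to 15 with a library left out, and those called lower 7 and 1 to 8. With 6 libraries no fold change of a member turned sign in any alternative run. Of the named pathway genes only Gata2 (-0.19) did, on log2(FPKM + 0.1) (0.01) and without Emb kd 5 (0.02) or WT 3 (0.46), with a range of -0.64 to 0.46 over libraries left out. Of all calls 54.1% were higher, 45.4% when no composition factor was applied, and on log2(FPKM + 1) 38.4%. The median log2 fold change of all genes was 0.02 here and -0.10 on log2(FPKM + 0.1). With 8 libraries it was 0.07, against -0.17 when no composition factor was applied and -0.35 with log2(FPKM + 0.1). The Gfra1 to Ret difference ranged from 0.25 to 1.20 (8 libraries) and -0.69 to -0.30 (6) with a library left out. Fold changes of pathway genes with 8 libraries, and their values in the alternative runs, are not reported.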

Other observations

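Several genes of the pathway lists were highest in Emb kd 1 and 2, where Ret itself was nearly absent. They were singled out after their values were seen and are given without a test. Grb2, the adaptor that recruits SOS1, reached 437 and 428 CPM, against 121 to 139.9 CPM in the other 6 libraries. Dok1, an adaptor also abundant in blood cells, was at 96.3 and 85.4 CPM against 2.54 to 16.4 CPM. Gata2 was at 79.3 and 332 CPM against 7.56 to 47.1 CPM. Ncam1 and Ptprf were lowest in the same libraries, Ncam1 at 9.79 and 15.7 CPM against 226 to 287 CPM and Ptprf at 4.33 and 2.68 CPM against 133 to 200.0 CPM. The leukocyte markers of these libraries are given above, and their part in these levels was not tested.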
